A study of Mus musculus with 8 samples.

Results

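The lysosome is the acidic compartment in which cells take apart proteins, complex sugars and lipids, and each of its soluble hydrolases acts on its own kind of substrate. Sulfatases remove sulfate groups from glycosaminoglycans and sulfolipids, glycosidases shorten sugar chains from the end, lipases and ceramidases open lipids, and cathepsins cut proteins. Proteins of the lysosomal membrane protect the compartment, export its products and let ions pass. In liver, hepatocytes as well as Kupffer cells, the resident macrophages, use this machinery, and the loss of single hydrolases causes storage diseases. The study named arylsulfatase G (Arsg) on the basis of these same arrays, so its own increase is no independent evidence here, and the question was whether Arsg stood alone among lysosomal genes.

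The genes described are 37 lysosomal hydrolases and membrane proteins, chosen by gene name among the probes of the array. They comprise 6 sulfatases, 13 glycosidases including an amidase, 4 lipid hydrolases, 9 proteases and 5 membrane and sterol transfer proteins. They were measured by 50 probes, and 36 of the 37 could be tested among 20118 genes in all. Liver RNA came from 4 male NZO mice (NZO/HiBomDife, an obese and diabetes-prone strain) and 4 male B6 mice (C57BL/6, a lean strain), with 1 one-colour Agilent array per mouse. Mice of both strains were 6 weeks old and ate a high-fat diet (45% fat) per the labels, and no mouse on another diet enters the comparison. Each level below is a log2 signal relative to the 75th percentile of the same array, so that 0 is the level of that percentile. A gene was represented by its brightest probe. A log2 fold change is NZO minus B6, with the standard error (SE) of the limma fit.

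The arrays were of liver: the hepatocyte markers Alb (albumin), Ttr, Apoa1, Cps1 and Tat were all measured, and albumin had a level of 11.21 ± 0.02 (SD, n = 4) in NZO and 10.94 ± 0.23 (n = 4) in B6. None of the 5 passed either test described below. The signal was above background for 50.4% to 55.0% of spots on the NZO arrays and for 53.1% to 60.1% on the B6 arrays. NZO mouse 007 stood apart by its skeletal muscle markers, with a summed level of 17.7 times the 75th percentile signal, against 0.136 to 0.303 in the other NZO mice and 0.396 to 5.70 in B6. For the genes named by rule, a value without this mouse is given where leaving it out changed a call.

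Arsg was not the only lysosomal gene that differed between the strains, and the differences ran both ways. At the thresholds of the study's methods, which ask for a log2 fold change of at least 0.7 in either direction and a p of 0.05 before adjustment, 3 of the 36 tested genes were higher in NZO (Arsg, Lipa and Galns) and 3 were lower (Glb1, Manba and Arsa). Each count is 8.33% of the tested genes, beside 5.25% of all 20118 genes higher and 6.57% lower at the same thresholds. With an adjusted p of 0.05 at any fold change, Ctsz joined the higher and Gla the lower genes, giving 4 in each direction (11.1%), beside 7.36% of all genes higher and 7.38% lower. The remaining 28 tested genes passed neither test. The median log2 fold change of the 36 genes was -0.01, against 0.03 over all genes, and 21 of the 36 lay within 0.25 of zero. In this processing the share of called members lay within a few percentage points of that of all genes in each direction. The share of lower members was higher under some alternatives, but not with median scaling (8.33% at the thresholds and 11.1% after adjustment, as here). After adjustment, 8 of the 36 (22.2%) were lower with normexp background correction, beside 6.53% of all genes, and 6 (16.7%) with quantile normalization, beside 7.80%. In the deposited table, which has neither background subtraction nor scaling between arrays, 6 (16.7%) were lower at the thresholds of the methods, beside 5.66%. The processing also changed the calls over all genes. At the thresholds of the methods 1056 were higher and 1322 lower, against 467 and 1139 in the deposited table. There 2 members were higher and 6 lower (Galns fell short of the fold threshold at 0.66, and Gla, Hexa and Asah1 were added). With normexp correction, which kept the scaling, 510 of all genes were higher and 469 lower. The parts of background subtraction and scaling in these changes were not tested.

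**Figure D1:**
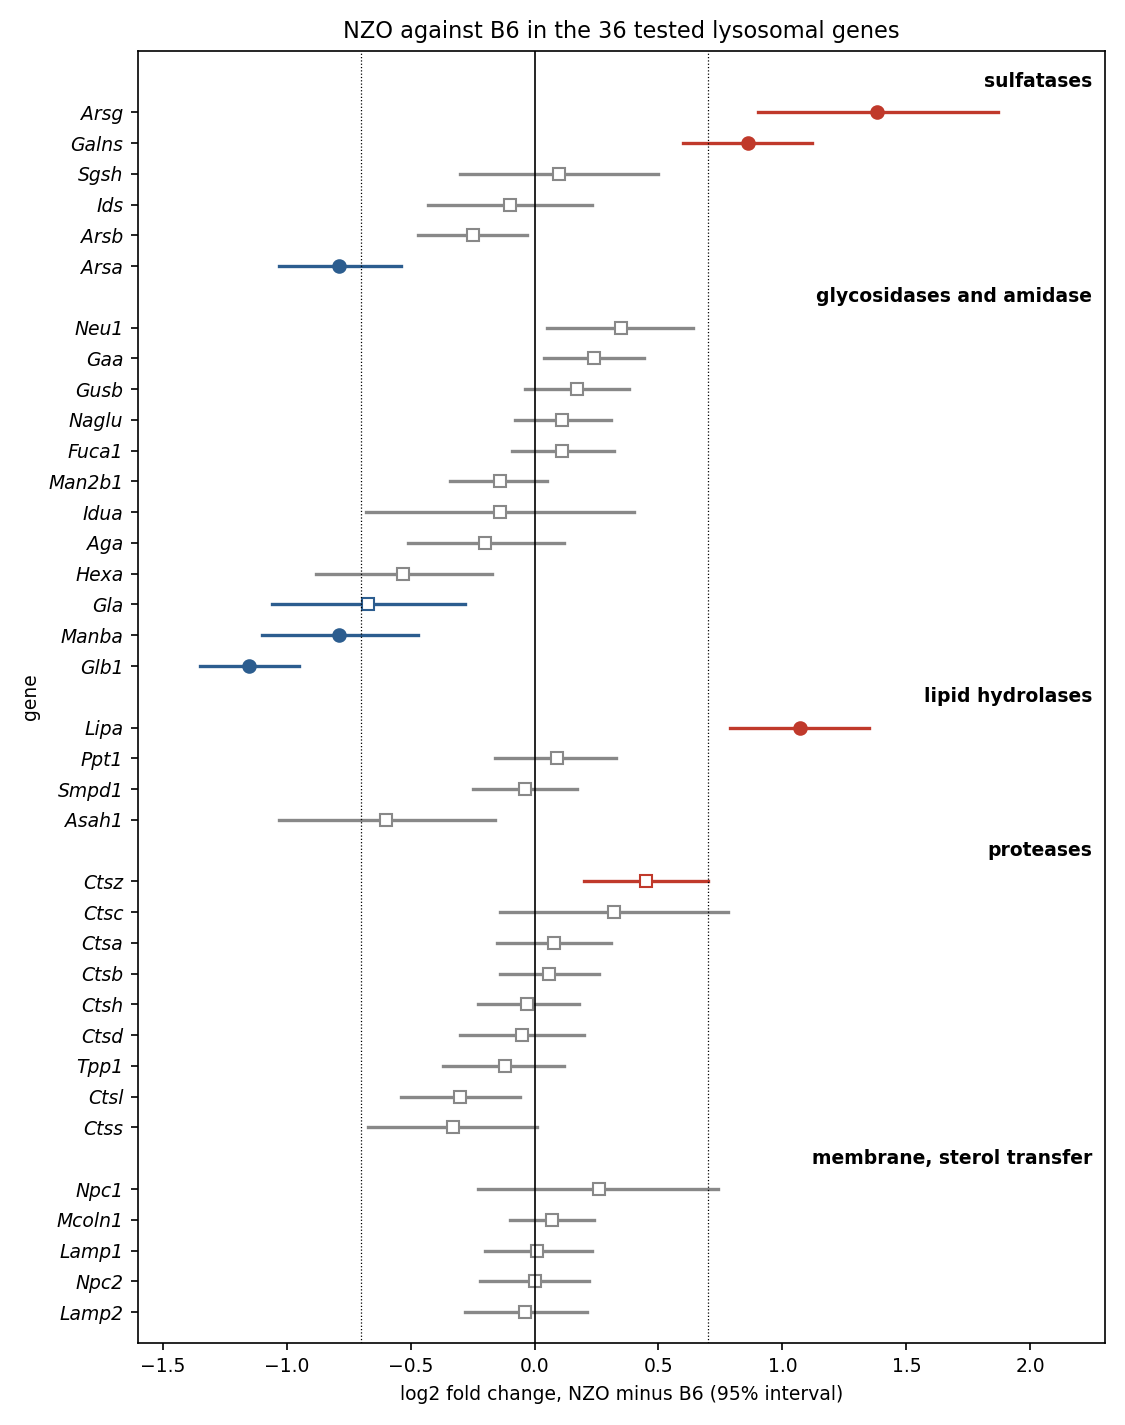
The log2 fold change (NZO minus B6, horizontal axis) of the 36 tested genes by role, with 95% intervals; filled circles passed the thresholds of the methods, open squares did not, red and blue mark genes higher and lower in NZO by either test, and dotted lines stand at 0.7 in either direction. Arsg lies farthest to the right at 1.38, Lipa (1.07) and Galns (0.86) follow, and Glb1 (-1.15) lies farthest to the left, while the 5 membrane and sterol transfer proteins lie between -0.04 and 0.26.

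Among the sulfatases, Arsg, which removes sulfate from the glucosamine of heparan sulfate, had levels of 5.25, 5.76, 5.41 and 5.49 in NZO mice 007, 003, 009 and 011. In B6 mice 011, 010, 015 and 009 its levels were 3.97, 4.59, 3.61 and 4.21. The lowest NZO mouse exceeded the highest B6 mouse, and the B6 mice were more widely spread (SD 0.41) than the NZO mice (SD 0.21). The log2 fold change was 1.38 (SE 0.21), a 2.61-fold difference with an adjusted p of 0.0032 by limma, and it stayed between 1.22 and 1.55 when any 1 mouse was left out. Of all genes tested, 4.42% had a larger change in either direction. The 95% interval of Arsg, 0.90 to 1.87, overlapped those of Lipa and Galns and lay above those of the other 33 tested members, although the differences between genes were not tested. Arsg was measured by 1 probe, which the files place at chr11:109434582-109434641 on the plus strand of mm9.

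Galns, the sulfatase that acts on galactose and N-acetylgalactosamine sulfates of keratan and chondroitin sulfate, was higher as well. Its levels were 4.33, 4.04, 4.03 and 3.92 in NZO and 3.12, 3.33, 3.30 and 3.14 in B6. The lowest NZO mouse lay above the highest B6 mouse, and the log2 fold change was 0.86 (SE 0.11, adjusted p = 0.0015). Arsa, which desulfates the myelin lipid sulfatide, went the other way. Its levels were 2.62, 2.97, 2.80 and 2.75 in NZO and 3.45, 3.54, 3.60 and 3.70 in B6. Again the strains did not overlap, with a log2 fold change of -0.79 (SE 0.11, adjusted p = 0.00167), which is a 1.72-fold lower level in NZO.

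The other 3 sulfatases passed neither test on their brightest probes. Sgsh, which like Arsg acts on heparan sulfate, had a log2 fold change of 0.10 (SE 0.17) with overlapping strains, and its other probe gave 0.00 (SE 0.13). Ids, the iduronate sulfatase of heparan and dermatan sulfate, had a log2 fold change of -0.10 (SE 0.14). Arsb, which acts on dermatan and chondroitin sulfate, had -0.25 (SE 0.10, adjusted p = 0.122), with all NZO values (-1.99 to -1.76) below all B6 values (-1.63 to -1.45). The other probe of Arsb gave -0.75 (SE 0.21, adjusted p over all probes 0.0518), which passes the thresholds of the methods, so the call for Arsb depends on the probe. The 6 sulfatases thus held 2 higher, 1 lower and 3 uncalled genes.

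**Figure D2:**
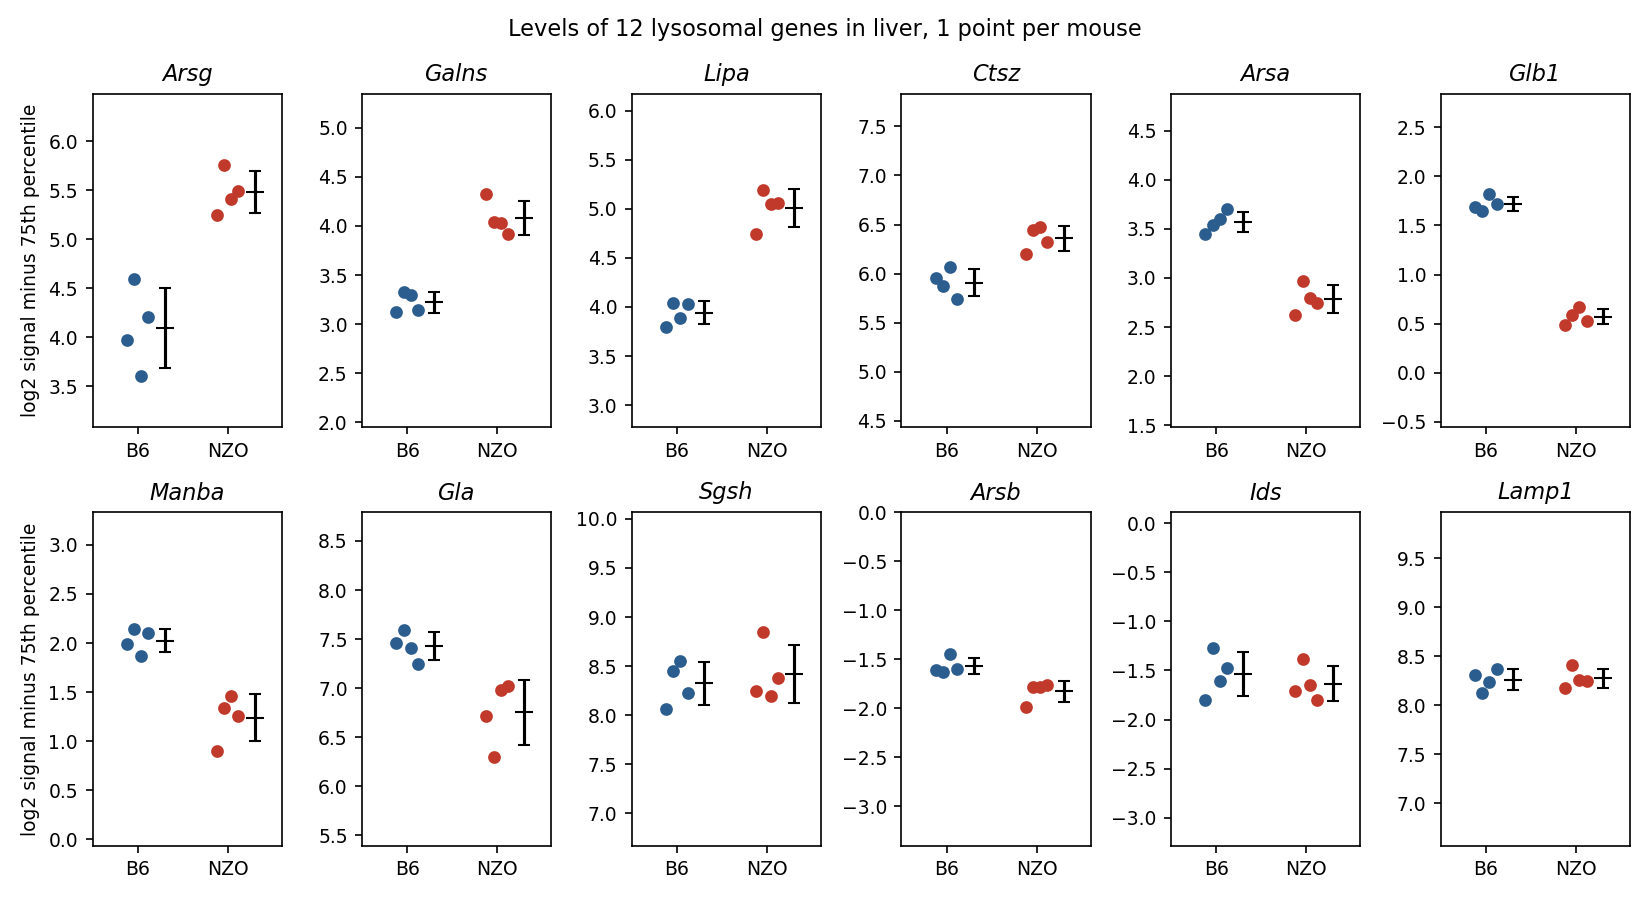
Levels (log2 signal minus the 75th percentile of the array, vertical axes of equal span) of the 8 genes called by either test and of Sgsh, Arsb, Ids and Lamp1, with 1 point per mouse and the mean ± SD of 4 mice in black beside the points. The strains do not overlap for the called genes and for Arsb, and they overlap for Sgsh, Ids and Lamp1. Uncalled members that are not drawn, such as Mcoln1 with a log2 fold change of 0.07, did not overlap either. The share of all genes without overlap is not given here, so a lack of overlap adds nothing to the calls.

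The called glycosidases were all lower in NZO. Glb1, the beta-galactosidase that trims gangliosides and keratan sulfate, had levels of 0.49, 0.59, 0.67 and 0.53 in NZO against 1.69, 1.65, 1.82 and 1.72 in B6. The spread within each strain was small (SD 0.08 and 0.07) beside the log2 fold change of -1.15 (SE 0.09, adjusted p = 8.02e-05), a 2.22-fold lower level in NZO. Of the 36 genes, Glb1 had the lowest log2 fold change.

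Manba, the beta-mannosidase of N-linked sugar chains, had levels of 0.90, 1.34, 1.46 and 1.26 in NZO and 1.99, 2.14, 1.87 and 2.10 in B6. NZO mouse 007 was the lowest, and the log2 fold change of -0.79 (SE 0.14, adjusted p = 0.00618) became -0.67 without it, short of the 0.7 threshold with an adjusted p of 0.00677. Gla, the alpha-galactosidase whose deficiency is Fabry disease, had levels of 6.72, 6.30, 6.98 and 7.02 in NZO and 7.46, 7.59, 7.41 and 7.25 in B6. The strains did not overlap, but the log2 fold change of -0.67 (SE 0.17, adjusted p = 0.0324) fell short of the fold threshold and ranged from -0.76 to -0.52 when 1 mouse was left out. The adjusted p of Gla was 0.0916 without B6 mouse 010, 0.0802 without B6 mouse 011, 0.0725 without B6 mouse 015 and 0.0664 without NZO mouse 007. Gla passed both tests with normexp correction (-0.74), quantile normalization (-0.81), in the deposited table (-0.90) and with the slide as a random block (-0.74). With the slide as a fixed term, where 1 NZO mouse (003) sets the difference, it was -1.20. Gla passed neither without a filter on dim probes (adjusted p = 0.0786) or by the methods' test on the same values (adjusted p = 0.115).

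The other 9 tested glycosidases passed neither test. Hexa, the alpha chain of beta-hexosaminidase, had the most negative value of these (-0.53, SE 0.15, adjusted p = 0.0583), with the strains apart, and Neu1, the lysosomal sialidase, the most positive (0.35, SE 0.13, adjusted p = 0.116). Gaa, which degrades glycogen, had a log2 fold change of 0.24 (SE 0.09, adjusted p = 0.112). Gusb, Naglu, Fuca1, Idua, Man2b1 and the amidase Aga lay between -0.20 and 0.17. Galc, the galactosylceramidase, was not well above background on any of the 8 arrays and has no fold change here.

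Among the lipid hydrolases, only Lipa was called. Lipa, the acid lipase that hydrolyses cholesteryl esters and triglycerides taken up by endocytosis, had levels of 4.74, 5.19, 5.05 and 5.06 in NZO and 3.80, 4.04, 3.89 and 4.03 in B6. All NZO mice lay above all B6 mice, and the log2 fold change was 1.07 (SE 0.12, adjusted p = 0.000701), a 2.10-fold difference. Its adjusted p was below that of Arsg, since its mice varied less, while its fold change was smaller. Asah1, the acid ceramidase, had a log2 fold change of -0.60 (SE 0.19, adjusted p = 0.0752), and its other probe gave -0.73 (SE 0.25), past the thresholds of the methods with an adjusted p over all probes of 0.0955. Ppt1, a thioesterase that removes palmitate from proteins, and Smpd1, the acid sphingomyelinase, had log2 fold changes of 0.09 (SE 0.10) and -0.04 (SE 0.09).

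Of the 9 proteases, 1 passed a test. It was Ctsz, the carboxypeptidase cathepsin Z, with levels of 6.20, 6.44, 6.47 and 6.32 in NZO and 5.95, 5.87, 6.07 and 5.74 in B6. The strains did not overlap, and the log2 fold change was 0.45 (SE 0.11, adjusted p = 0.0268), a 1.37-fold difference. The adjusted p rose to between 0.0589 and 0.0809 when NZO mouse 003, 009 or 011 or B6 mouse 009, 010 or 011 was left out. Ctsz also missed the threshold after quantile normalization, at 0.33 (adjusted p = 0.0676), and in the deposited table, at 0.19 (adjusted p = 0.337). Ctsb, Ctsd and Ctsh, lysosomal cathepsins, had log2 fold changes of 0.06 (SE 0.09), -0.05 (SE 0.11) and -0.03 (SE 0.09). Ctsl had -0.30 (SE 0.10, adjusted p = 0.0998) and Ctss, which is abundant in antigen-presenting cells, -0.33 (SE 0.15, adjusted p = 0.192). Ctsc, Ctsa and Tpp1, exopeptidases, had values of 0.32, 0.08 and -0.12. The 95% intervals of Ctsb, Ctsd and Ctsh lay within 0.30 of zero in either direction.

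None of the 5 membrane and sterol transfer proteins passed either test. Lamp1 and Lamp2, the abundant glycoproteins that line the lysosomal membrane, had log2 fold changes of 0.01 (SE 0.09, 95% interval -0.20 to 0.23) and -0.04 (SE 0.11, -0.28 to 0.21), and the second probe of Lamp2 gave -0.02. Lamp1 levels ran from 8.18 to 8.41 in NZO and from 8.13 to 8.37 in B6, an almost complete overlap. Npc2, which carries cholesterol inside the lysosome, had 0.00 (SE 0.10), and Npc1, its partner in the membrane, had 0.26 (SE 0.21). Mcoln1, a cation channel that releases calcium from the lysosome, had 0.07 (SE 0.07) on its brightest probe and -0.65 (SE 0.19, adjusted p over all probes 0.0592) on a dimmer one, so its probes disagreed in sign.

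In all, 12 of the 37 genes had more than 1 probe, and the 8 called genes had 1 probe each, so that no second probe was at hand for any call. Whether a sequence difference between the strains lies under any of these probes was not examined.

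The scan day and the slide of each array could be read from the files. Day 1 held 3 NZO and 2 B6 arrays and day 2 held 1 NZO and 2 B6 arrays. The NZO array of day 2 was that of mouse 007, which stood apart for its muscle markers, so the differences of day 2 rest on this mouse and have no value without it, while those of day 1 do not contain it. Within day 1 and day 2, Arsg had differences of 1.45 and 1.17, Lipa of 1.13 and 0.82, Galns of 0.69 and 1.20, Glb1 of -1.14 and -1.21, Arsa of -0.72 and -0.96, and Manba of -0.65 and -1.15. On the slide that held both strains (1 NZO and 2 B6 arrays), Arsg differed by 1.66, Lipa by 1.23, Galns by 0.73, Glb1 by -1.14, Arsa by -0.59 and Manba by -0.66. No other slide held both strains, so a fit with the slide as a fixed term rests on this contrast, with 1 NZO mouse (003). Its values are those of the slide, with Ctsz at 0.47. In that fit Arsa, Manba and Ctsz passed neither test, and Arsg and Galns passed the thresholds of the methods but not after adjustment. With 1 NZO mouse, a call lost there is not read as an effect of the slide.

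Many lysosomal genes carry the sequence CACGTG, an E-box, in their promoters, and a longer form of it, the CLEAR element, is bound by TFEB and related factors that switch on lysosomal genes. The letters CACGTG and TCACGTGA, which contains the former, were looked for in the RefSeq promoter windows of GRCm38.p6 (250 bases before to 50 after a start). Both read the same on either strand. Of the 37 genes, 31 had a window, and 11 of these (35.5%) held CACGTG and 4 (12.9%) held TCACGTGA. Over all 27025 genes with a window the shares were 8.09% and 1.12%. Among the genes of the other lists below, of lysosomal and related genes, 24 of 96 (25%) held CACGTG and 14 (14.6%) held TCACGTGA.

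By direction, 3 of the 4 genes lower in NZO (Arsa, Glb1 and Gla) had CACGTG in the window, Manba did not, and none of the 3 higher genes with a window (Arsg, Lipa and Ctsz) had it. Of the members called by neither test, 8 of 24 with a window had it. These are counts of a few genes with no test, and a match of letters is not a binding site. Arsg had 2 listed starts, both inside its gene span, which begins at chr11:109473333. No window covered that beginning, so the absence of the motif in Arsg holds for these 2 windows alone. The 250 bases before the start are shown for Arsg, where 2 starts were listed and the first is given, for Lipa, and for the 3 lower genes with the motif, since these carry the contrast; CACGTG is in capitals and all run 5′ to 3′ on the strand of the gene.
Arsg: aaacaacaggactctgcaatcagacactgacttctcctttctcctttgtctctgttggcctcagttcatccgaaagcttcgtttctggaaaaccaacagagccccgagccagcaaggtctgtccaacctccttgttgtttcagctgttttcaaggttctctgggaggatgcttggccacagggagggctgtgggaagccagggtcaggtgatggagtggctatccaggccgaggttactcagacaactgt
Lipa: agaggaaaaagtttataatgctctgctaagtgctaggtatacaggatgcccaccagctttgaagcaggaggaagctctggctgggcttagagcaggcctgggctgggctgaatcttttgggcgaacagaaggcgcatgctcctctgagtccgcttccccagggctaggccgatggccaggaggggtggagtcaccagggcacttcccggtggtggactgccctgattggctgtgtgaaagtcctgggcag
Arsa: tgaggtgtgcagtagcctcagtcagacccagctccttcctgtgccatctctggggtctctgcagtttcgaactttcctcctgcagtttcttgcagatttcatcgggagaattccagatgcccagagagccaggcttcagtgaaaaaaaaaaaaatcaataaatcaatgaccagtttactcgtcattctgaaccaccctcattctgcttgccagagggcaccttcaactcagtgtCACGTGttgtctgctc
Glb1: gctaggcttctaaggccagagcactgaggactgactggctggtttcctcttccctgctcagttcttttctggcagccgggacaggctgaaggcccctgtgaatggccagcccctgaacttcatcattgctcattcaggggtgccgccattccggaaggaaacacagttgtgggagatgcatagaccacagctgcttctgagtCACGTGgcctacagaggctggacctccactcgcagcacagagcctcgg
Gla: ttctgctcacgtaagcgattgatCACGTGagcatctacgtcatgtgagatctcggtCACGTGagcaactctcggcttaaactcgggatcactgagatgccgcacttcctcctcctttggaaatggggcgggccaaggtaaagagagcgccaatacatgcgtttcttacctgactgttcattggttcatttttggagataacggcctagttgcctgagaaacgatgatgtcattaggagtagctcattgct
The windows are chr11:109485642-109485891 on the plus strand for Arsg, chr19:34527475-34527724 on the minus strand for Lipa, chr15:89477425-89477674 on the minus strand for Arsa, chr9:114400828-114401077 on the plus strand for Glb1 and chrX:134601006-134601255 on the minus strand for Gla. The motif began 16 bases before the start in Arsa, 48 in Glb1, and 227 and 194 in Gla, whose motifs were both of the longer form TCACGTGA. Uncalled genes carried it too: Lamp1 had 4 matches, beginning 15 to 61 bases before the start, with a log2 fold change of 0.01.

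The genes that control lysosomal gene expression differed little. None of the 16 tested genes of this list passed either test, and their log2 fold changes lay between -0.28 and 0.24. Tfeb, Tfe3 and Mitf, the transcription factors of the CLEAR element, had values of 0.24 (adjusted p = 0.175), -0.08 (adjusted p = 0.658) and 0.11 (adjusted p = 0.624). Mtor and Rptor, of the kinase complex that holds these factors in the cytoplasm, had 0.21 and 0.15.

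A further 6 lists, these control genes included, hold lysosomal genes and related ones, and not all of their proteins are in the lysosome. Of their 118 tested genes, 5 were higher (4.24%) and 1 lower (0.847%) at the thresholds of the methods. After adjustment 9 were higher (7.63%) and 4 lower (3.39%). Of all genes, 5.25% were higher and 6.57% lower at the thresholds, and 7.36% and 7.38% after adjustment. Arsk is among the higher genes of both counts although its probes disagreed in direction, and without it 4 of 117 were higher and 1 lower at the thresholds, and 8 and 4 after adjustment. The median of the 118 log2 fold changes was 0.01, and 83 of the 118 lay within 0.25 of zero. Of the 7 tested genes among the other sulfatases and their activators, Arsk, a lysosomal sulfatase of glucuronate residues, was the only one called. Its brightest probe had levels of -0.17, 0.00, 0.07 and -0.21 in NZO and -2.13, -2.05, -2.54 and -2.02 in B6, a log2 fold change of 2.11 (SE 0.14, adjusted p = 4.24e-05). The other probe of Arsk went the opposite way: its levels in B6 were -1.79, -1.49, -1.83 and -1.77, while on all 4 NZO arrays it was not well above background, at least 5.06-fold lower than in B6 (adjusted p over all probes 1.02e-06). Such a bound sets the bright strain against the lowest level found above background on each array of the dim strain. No direction for Arsk can thus be given from these arrays. Sumf1 and Sumf2, of which the former activates all sulfatases, had log2 fold changes of 0.17 and -0.08 and passed neither test.

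Of the 27 other lysosomal hydrolases, none passed the thresholds of the methods, while Scpep1, Man2b2 and Ctsf were higher (0.67, 0.48 and 0.41) and Lgmn and Ctso lower (-0.55 and -0.51) after adjustment. Scpep1 is a carboxypeptidase, Man2b2 a mannosidase, and Lgmn, Ctsf and Ctso are proteases. Of the 25 other membrane proteins, Clcn7, the chloride-proton exchanger, was higher (0.81, SE 0.13, adjusted p = 0.00353) and Slc38a9, the arginine sensor of the lysosome, lower (-0.97, SE 0.26, adjusted p = 0.0401). Slc38a9 levels were -1.57, -1.85, -0.72 and -0.76 in NZO and -0.27, -0.12, -0.29 and -0.34 in B6. NZO mice 009 and 011, which shared a slide, were higher than the other NZO mice, and none reached the B6 mice. A fit that held the slide as a fixed term gave a log2 fold change of -1.65, which rests on 1 NZO mouse (003). Normexp correction gave -0.53 (adjusted p = 0.0151). Without NZO mouse 007 it was -0.86 (adjusted p = 0.0869), and the adjusted p also rose, to between 0.0702 and 0.104, without NZO mouse 003 or any 1 of the B6 mice, while the thresholds of the methods were still passed. A second probe of Slc38a9, above background on 2 NZO arrays, gave -1.35 (SE 0.25). The remaining, dimmer probe was not tested and had means of -3.27 in NZO and -3.88 in B6. Cd63, a tetraspanin of late endosomes, was lower after adjustment (-0.46, adjusted p = 0.0465).

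Of the 19 subunits of the vacuolar proton pump, Atp6v0e2 was higher in NZO (0.97, SE 0.12, adjusted p = 0.000981), and Atp6v1g1 passed after adjustment (0.48, adjusted p = 0.0168). Atp6v0d2 passed only the unadjusted thresholds (0.89, SE 0.31, adjusted p = 0.0999) with overlapping strains, at 0.69 without B6 mouse 011, 0.71 without NZO mouse 009 and 0.78 without NZO mouse 011, in each of which it passed neither test. It also passed neither in the deposited table (0.28), and after normexp correction it was 0.32, past the adjusted test alone (adjusted p = 0.0392). Under a fixed slide term its sign turned (-0.07), a value that rests on 1 NZO mouse (003). Atp6v0e2 was 0.56 after normexp correction and 0.55 in the deposited table, past the adjusted test alone in both. The median of the 19 subunits was 0.00. Among 24 genes of delivery to the lysosome, Gga2, an adaptor that sorts mannose 6-phosphate receptors at the trans-Golgi network, was higher (1.33, SE 0.22, adjusted p = 0.00491), with levels of 1.61, 2.22, 1.79 and 2.35 in NZO and 0.53, 1.02, 0.26 and 0.85 in B6. Nagpa, which uncovers the mannose 6-phosphate signal, had 0.54 (adjusted p = 0.0479). The mannose 6-phosphate receptors M6pr and Igf2r had -0.09 and -0.10 and passed neither test.

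**Figure D3:**
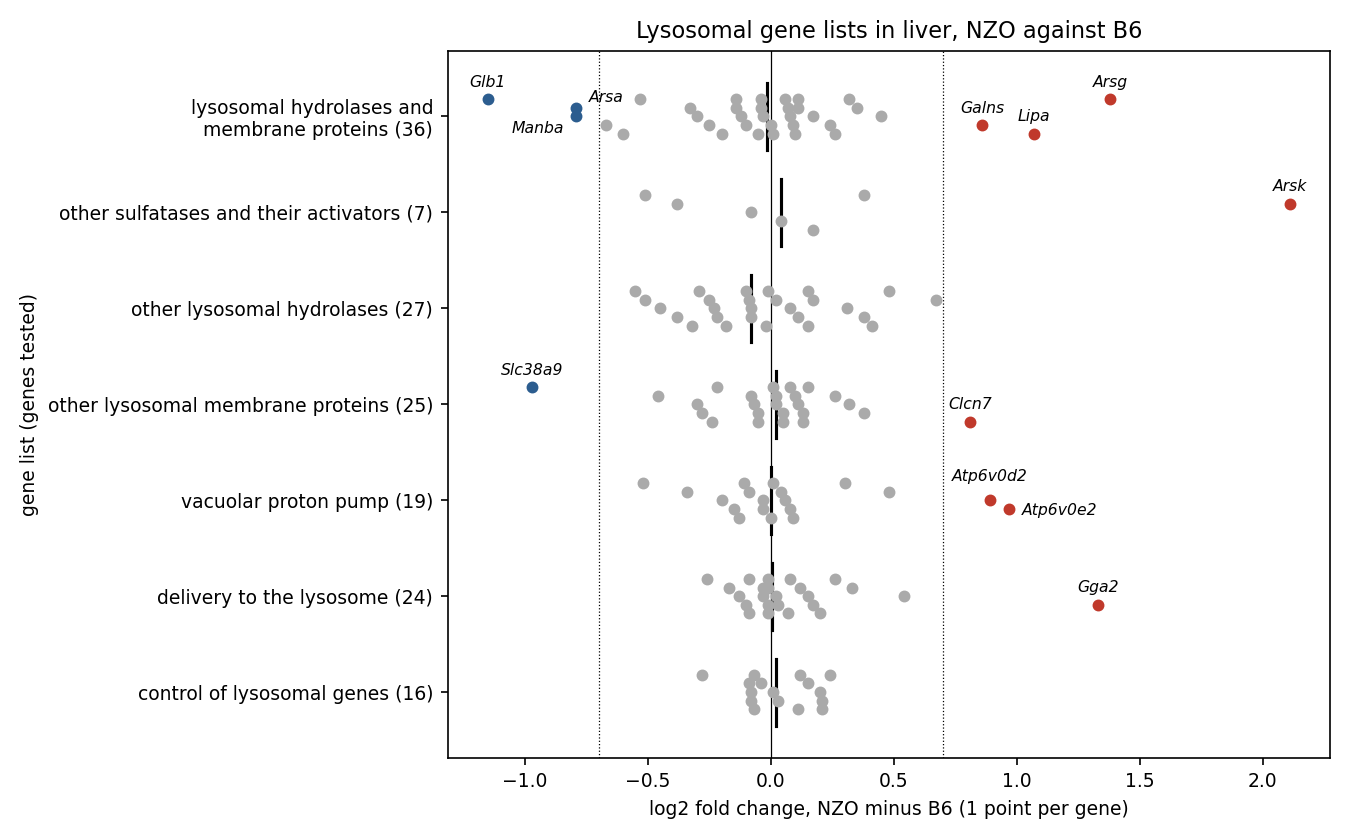
The log2 fold change (NZO minus B6, horizontal axis) of each tested gene of 7 lists of lysosomal and related genes, 1 point per gene. List medians are black bars, and dotted lines stand at 0.7 in either direction. Red and blue mark genes past the thresholds of the methods. The medians lie between -0.08 and 0.04, Arsk (2.11, its brightest probe) lies farthest out, and its other probe, which went the opposite way, is not drawn.

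Since bulk liver holds several cell types, fewer cells of a type and less RNA per cell cannot be told apart in these data. Markers of Kupffer cells and macrophages were lower in NZO, with a median of -0.56. Of 12, 7 were called after adjustment (58.3%), and all of them were lower, beside 7.38% of all genes lower. Of these, 3 also passed the thresholds of the methods (25% of the 12, beside 6.57% of all genes lower). Clec4f and Marco, receptors of Kupffer cells, had log2 fold changes of -1.13 (SE 0.13, adjusted p = 0.000805) and -1.83 (SE 0.36, adjusted p = 0.0113), and Cd5l, the brightest of the list, -0.71 (SE 0.11, adjusted p = 0.00314). The summed level of the 12 was 171, 169, 141 and 147 times the 75th percentile signal in NZO and 259, 228, 316 and 212 in B6. All 12 were above background on at least some arrays, and Lyz2 was the only one with a positive value (0.41, adjusted p = 0.104). The lower lysosomal genes moved in the direction of this list and the higher ones against it, and the part of macrophages in these differences was not tested.

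Single genes of other marker lists were called as well. Red blood cell markers were higher in NZO, where Hba-a1 (1.01, SE 0.22, adjusted p = 0.0177) and Alas2 (0.90, SE 0.13, adjusted p = 0.0021) passed both tests, Hbb-b1 (0.81, SE 0.25, adjusted p = 0.0686) met only the thresholds of the methods and Slc4a1 had 0.62 (adjusted p = 0.319). Hbb-b1 passed neither test without B6 mouse 015 (0.69) or NZO mouse 009 (0.60). Their summed level was 365, 318, 470 and 293 in NZO and 208, 165, 155 and 196 in B6. Of 6 markers of stellate cells and fibroblasts, 1 was called, Pdgfrb, which was lower (-0.99, SE 0.10, adjusted p = 0.000324), and the summed level, led by Dcn, was 50.9 to 63.7 in NZO and 70.2 to 78.6 in B6. Of the cholangiocyte markers Sox9 was lower (-1.46, SE 0.28, adjusted p = 0.00888), Krt7 passed only the unadjusted thresholds (-1.0, SE 0.34, adjusted p = 0.0895), Krt19 had -0.65, and Epcam was not tested. Krt7 was above background on 2 of the 4 NZO arrays. Without NZO mouse 011 it was -0.64, past the adjusted test alone (adjusted p = 0.0349). Of 7 other leukocyte markers, 1 was called, Itgax, which was lower (-2.04, SE 0.53, adjusted p = 0.0357) and was above background on 2 of the 4 NZO arrays. After normexp background correction neither Itgax (-0.37) nor Krt7 (-0.04) passed a test, and Pdgfrb (-0.53) and Sox9 (-0.58) passed after adjustment alone. In the deposited table Hbb-b1 (0.57) and Krt7 (-0.36) passed neither. In the fit with a fixed slide term, which rests on 1 NZO mouse (003), Hba-a1 (0.98), Hbb-b1 (0.86), Cd5l (-0.65) and Krt7 (-0.66) passed neither.

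Of the sinusoidal endothelial markers, Stab2 was higher (0.49) and Lyve1 lower (-0.62) after adjustment, and the summed level was 77.9 to 103 in NZO and 77.1 to 87.8 in B6. The adipocyte markers Adipoq, Plin1 and Lep were above background on no array, and neither were 4 of 6 markers of exocrine pancreas (Cela3b, Pnlip, Cpa1 and Prss2). No tested marker of adipocytes, exocrine pancreas or skeletal muscle passed either test. Without NZO mouse 007, whose muscle markers were high, 3 members were higher at the thresholds of the methods (8.33%, beside 5.63% of all genes). Of the members 2 were lower (5.56%, beside 7.32% of all genes), Manba being the one lost.

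**Figure D4:**
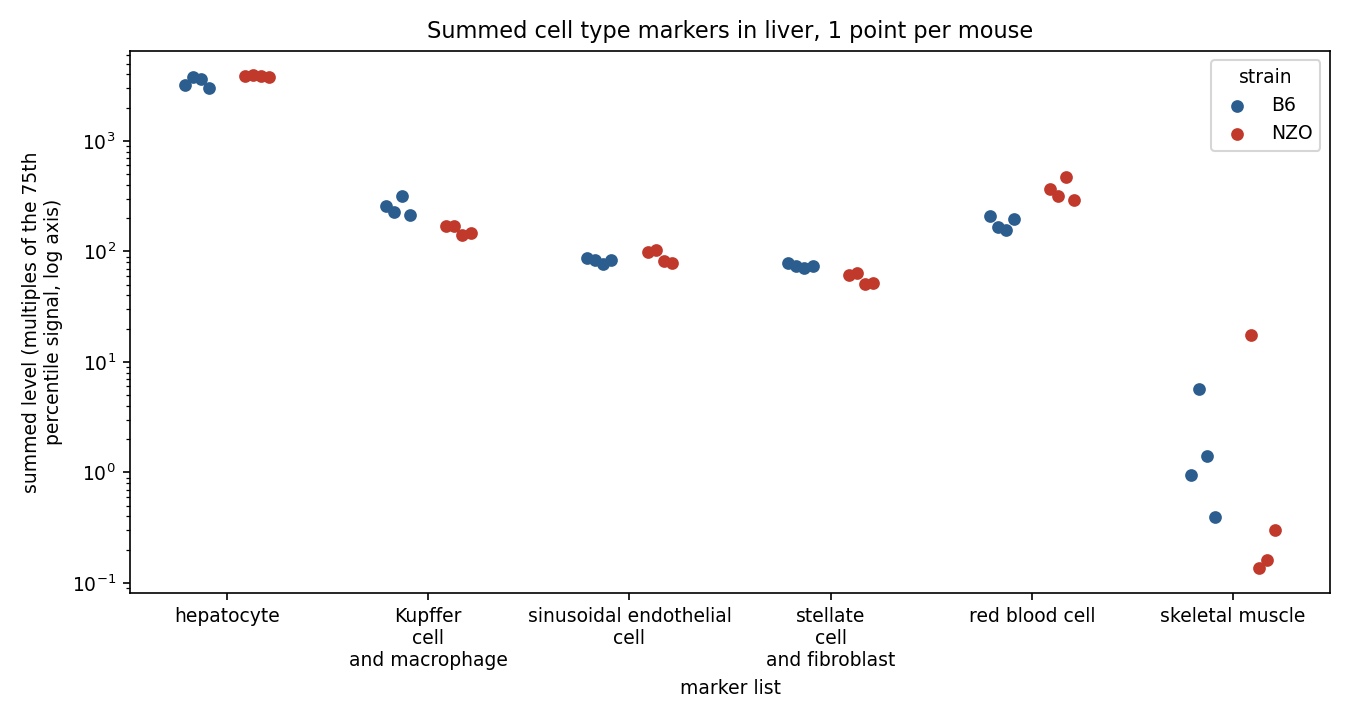
Summed level of 6 cell type marker lists (log axis, in multiples of the 75th percentile signal of the array), with 1 point per mouse and B6 in blue left of NZO in red. Kupffer cell and macrophage markers are lower in every NZO mouse (141 to 171) than in every B6 mouse (212 to 316), red blood cell markers are higher (293 to 470 against 155 to 208), and 1 NZO mouse stands out for skeletal muscle markers at 17.7.

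The genes beside Arsg were compared to see whether its difference was shared along the chromosome. Of 30 genes within 500 kb on either side, Arsg included, in the RefSeq table of GRCm38.p6, 11 were tested. Of these, 2 were higher at the thresholds of the methods, Arsg and its overlapping neighbour Slc16a6, beside 5.25% of all genes. The study named Slc16a6 too as higher in NZO liver, so neither increase is independent evidence of a shared difference. Slc16a6, a member of the monocarboxylate transporter family, had levels of 3.46, 2.79, 3.48 and 3.42 in NZO and 2.59, 2.01, 2.41 and 2.34 in B6. The strains did not overlap, and the log2 fold change was 0.95 (SE 0.19, adjusted p = 0.0119); its other probe gave 0.93 (SE 0.29, adjusted p over all probes 0.0702). Slc16a6 passed neither test in the unscaled deposited table (0.64, adjusted p = 0.0531). With the slide held fixed its value was 0.58, which rests on 1 NZO mouse, 003, the lowest of its strain (2.79). On the other side of Arsg, Wipi1, an autophagy protein, had -0.26 (SE 0.13, adjusted p = 0.237). Abca8b, a lipid transporter farther away, was higher after adjustment (0.52, SE 0.12, adjusted p = 0.024), a call that was lost when B6 mouse 009, 011 or 015 or NZO mouse 003, 007 or 009 was left out (log2 fold changes of 0.50, 0.54, 0.43, 0.53, 0.48 and 0.49). It was also lost after quantile normalization (0.44) and in the deposited table (0.20). Rgs9, Gm11696, Gna13, Amz2, Prkar1a, Fam20a and Abca8a passed neither test, with values from -0.04 to 0.45. Without NZO mouse 007, Rgs9 passed after adjustment (0.43, adjusted p = 0.0356). Arsg shares its chromosome with 3 other members, Sgsh, Gaa and Naglu, whose log2 fold changes were 0.10, 0.24 and 0.11.

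**Figure D5:**
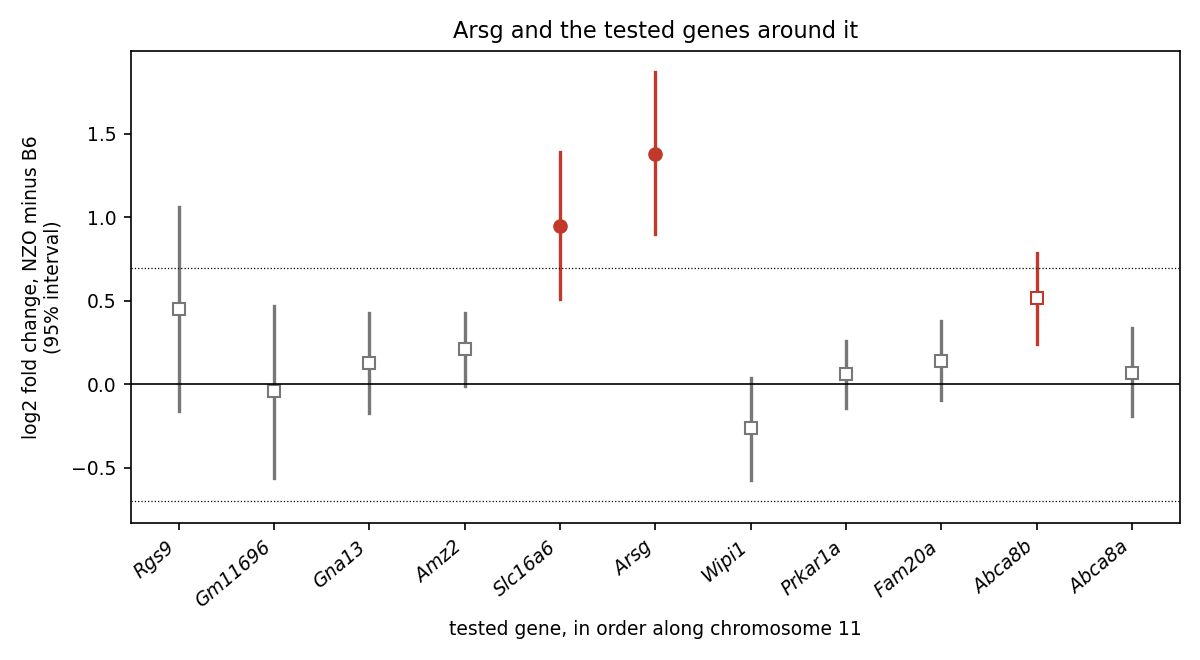
The log2 fold change (NZO minus B6, vertical axis, with 95% intervals) of the 11 tested genes within 500 kb of Arsg, in their order along chromosome 11 and not to scale in distance; filled red circles passed the thresholds of the methods, the open red square passed after adjustment alone, and dotted lines stand at 0.7 in either direction. Slc16a6 (0.95) and Arsg (1.38) are neighbours, and the 3 genes next to Slc16a6 and the 3 next to Arsg lie between -0.26 and 0.21.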

How the data were processed

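Liver RNA of 4 NZO and 4 B6 mice was measured with 1-colour arrays. The files deposited by the authors are 1 scanner output per array, whose intensity values come from Agilent Feature Extraction (version 11.0.1.1 per the file headers, 9.1 per the submitters' processing notes), and a table of all arrays that equalled the raw median intensity within 0.01 for 59305 of 59305 spots of every array. The processed signal, which has its background subtracted within the array and no scaling between arrays, was used here. Control spots and 96 to 137 outlier spots on each array were removed, log2 was taken, the 75th percentile of the array was subtracted and spots of a probe were averaged. By the deposited flag for spots well above background, 27623 of 55681 probes were kept, which had it on all 4 arrays of at least 1 strain. Precision is limited by the number of arrays, and the labels do not say whether mice shared a litter.

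Probes were matched to the gene table by accession (27650), another accession (85), symbol (3352) or synonym (312). The probe with the highest mean stood for a gene. limma 3.58.1 (R 4.3.3) was fitted over all 20118 genes without a block, and p-values were adjusted by the Benjamini-Hochberg method over all of them; values of second probes were adjusted over all probes kept. Intervals are 95% intervals of that fit. The steps were tested on simulated data. Python 3.11.15, pandas 2.3.3 and matplotlib 3.10.9 made tables and plots.

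The members, lists and tests were chosen with earlier results of these data known. Genes named are members called by either test, all member sulfatases, members whose signal or probes limit the call, genes of the other lists past the thresholds of the methods, and genes within 500 kb of Arsg; other genes are named to account for their list and were chosen after their values were seen. Alternatives were normexp background correction (offset 50), quantile normalization, a median scaling, the deposited table as given, 2 other filters, 2 other rules for the probe, the slide as a random or fixed term, the scan day, the mouse number as a block, the methods' t-test with Welch correction on the same values, and leaving out each mouse.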

Additional observations from a re-analysis of the deposited data

Results flagged for a closer look

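In 6 of 74 groups of 4 mice, 1 array lay apart from the other 3 by Dixon's criterion, which chance alone meets in about 1 group in 20. Arsb had its lowest NZO level in mouse 007 (-1.99, against -1.76 in the highest) and its highest B6 level in mouse 015 (-1.45, against -1.63 in the lowest). Clcn7 was lowest in B6 mouse 010 (2.04, the highest being 2.3). Itgax was highest in B6 mouse 015 (-1.18, the lowest being -1.94), and Krt7 was lowest in NZO mouse 011 (-5.00, the highest being -3.45). Slc16a6 was lowest among NZO mice in mouse 003 (2.79, the highest being 3.48).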

How the results depend on the processing

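Arsg, Lipa and Glb1 kept their direction and passed the thresholds of the methods under every alternative. Each had 1 probe, above background on every array, so the other filters and probe rules could not change their fold changes. Arsg lay between 1.16 and 1.66, the latter under the fixed slide term. The deposited table as given shifted the median of all genes by -0.18 and lowered the share of higher genes among all calls from 44.4% to 29.1%; there 6 members were lower at the thresholds and 8 (22.2%, beside 12.2% of all genes) after adjustment, and Galns passed after adjustment alone. After normexp correction 4 members (11.1%, beside 7.79% of all genes) were higher and 8 (22.2%, beside 6.53%) lower after adjustment. The fixed slide term takes the strain difference from 1 NZO mouse (003), so no count of members is given for it. Leaving out 1 mouse gave 3 members higher (8.33%) and 2 to 4 lower (5.56% to 11.1%) at the thresholds. Of all genes, 5.16% to 5.63% were higher and 6.32% to 7.32% lower in these fits. After adjustment 3 to 4 members (8.33% to 11.1%) passed in each direction, beside 5.32% to 7.24% of all genes higher and 5.24% to 6.82% lower. Arsk reversed to -1.10 with the mean over its probes and to -4.31 with the probe of smallest p. Atp6v0d2 was -0.07 under the fixed slide term, which rests on that 1 NZO mouse. Counting as called a gene that passed either test, whichever it was, 692 other values of the genes named by rule, those near Arsg included, kept their call or its absence, 55 lost it and 4 gained it; for genes outside the members these alternatives, and the counts without Arsk, were chosen after seeing the data. The causes were not tested. The signal was 1.76 to 1.86 times the local background on the NZO arrays and 1.83 to 2.06 times on the B6 arrays, which limits values of dim probes.

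The labels number mice 009 and 011 in both strains, but these are different mice. Their deviations from the strain means correlated by -0.26 and 0.01 across genes, so the numbers did not pair them. A fit with the mouse number as a fixed replicate block takes the strain difference from mice 009 and 011 alone. In it 3 members were higher (8.33%, beside 6.41% of all genes) and 2 lower (5.56%, beside 8.48%) at the thresholds. After adjustment 0 and 0 passed (limma, with 53 genes higher and 65 lower in all). Arsg was at 1.36 and Gla at -0.36. With so few mice, a call lost there is not read as an effect of the mouse number.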
